A study of Homo sapiens with 21 samples.

Results

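The genes described here are 10 genes of MHC class I antigen presentation: B2M, HLA-E, HLA-F, TAP1, TAP2, TAPBP, PSMB8, PSMB9, NLRC5 and ERAP1. They were chosen by gene symbol, out of 19775 genes that have 1 or more probe sets paired with a single symbol, and all of their 25 such probe sets are given, out of 54613 tested. The rule itself uses the symbol and no measured value. MHC class I molecules carry short peptides from inside the cell to its surface, where CD8 T cells and natural killer cells read them. Proteasomes cut the peptides, the TAP1 and TAP2 transporter moves them into the endoplasmic reticulum, ERAP1 trims them there, and tapasin (TAPBP) holds the transporter close to an empty heavy chain that is paired with beta-2 microglobulin (B2M). Nearly all nucleated cells carry this pathway, and interferon gamma raises most of its genes.

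The study asked how APE1, a DNA repair enzyme that also acts in transcription, and the acetylation of its N-terminal lysines affect gene expression in lung cells. The 21 arrays (Affymetrix) fall into 7 groups with 3 biological replicates each, of the lung adenocarcinoma line A549 or the immortalized bronchial epithelial line BEAS-2B. The A549 cells had control siRNA or APE1 siRNA, each without TSA or with TSA at 100 ng/ml for 4 hrs before harvest. TSA, trichostatin A, blocks histone deacetylases. The BEAS-2B cells were transfected with constructs for wild type APE1 (WT), for K6R/K7R APE1 (RR), in which a pair of lysines that can be acetylated is replaced by arginine, or for APE1 that lacks its first 42 residues (ND42). The harvest was 48 hrs after transfection by the sample labels, while the methods of the study name a later time for the siRNA experiment. A single siRNA against APE1 was used on the arrays, and what it does to transcripts other than APEX1 cannot be separated from APE1 loss. All 3 BEAS-2B groups express an introduced APE1 beside their own, and no BEAS-2B group without a construct is among the arrays, so each BEAS-2B value is set against WT APE1.

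Values are log2 RMA values of probe sets, each a set of short probes for 1 part of a transcript. A gene's probe set with the highest mean over all arrays is called its leading probe set here. Levels of different probe sets are not compared, since each binds its transcript with its own strength. Calls rest on limma: a called probe set has a Benjamini-Hochberg adjusted p, over all probe sets tested, of less than 0.05 and a linear level at least 25% higher in the higher group (the fold threshold), and "rose" and "fell" are used only of called probe sets. The fit used all groups of a cell line, and p-values measure the spread between 3 arrays a group.

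APEX1, the gene of APE1, had log2 values of 12.14 to 12.24 after control siRNA and of 8.43 to 10.18 after APE1 siRNA, and with TSA of 11.77 to 11.85 and of 9.53 to 9.55. In BEAS-2B cells it had 10.09 to 11.02 with WT, 10.61 to 10.68 with RR and 10.39 to 10.57 with ND42 APE1. APE1 siRNA replicate 2 without TSA stood apart: its correlation with the other A549 arrays was 0.876 to 0.896, and 15% of all probe sets lay over 1 log2 unit from the mean of replicates 1 and 3. Of 5 epithelial markers, KRT8 and KRT18 had group means above log2 6 in every group, and EPCAM, KRT19 and CDH1 were below it in every group of both cell lines. Of 4 leukocyte markers, CD3E and CD14 had group means above log2 6 in every group, and LYZ and PTPRC, which marks all leukocytes, were below it in every group, PTPRC with group means of 4.20 to 4.73.

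The promoter windows are shown first, because the same interferon motif stands in most of them. RefSeq (GRCh38.p14) gave 11 windows for 8 of the genes, each with 250 bases before a transcript start and 50 bases from it on. HLA-E and NLRC5 have no entry in the table used. The interferon-stimulated response element (ISRE), bound by IRF proteins and by the STAT complex of type I interferon, was searched for on both strands by its core, which reads GAAA, any 2 bases and GAAA again. It was found in 7 of the 11 windows, in 1 window each of 7 genes, and in 3.57% of all 35116 promoter windows of this length. The stretches below have 30 bases and are printed 5′ to 3′ on the strand that reads GAAA, and the capitals mark the core or overlapping cores.
B2M: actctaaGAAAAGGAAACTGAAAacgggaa
HLA-F: ggttgggagaGAAAGAGAAActctggggag
TAP1: tttagggGAAAGCGAAATCGAAAgcggccg
TAP2: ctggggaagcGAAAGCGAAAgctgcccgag
TAPBP: tttggagGAAAGTGAAAGTGAAAggaggaa
PSMB8: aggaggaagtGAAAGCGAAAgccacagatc
ERAP1: ccccaggaccGAAAGTGAAAgtggagcccg

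These stretches lie at chr15:44711366-44711395 (plus strand) for B2M, chr6:29723268-29723297 (minus) for HLA-F, chr6:32853816-32853845 (plus) for TAP1, chr6:32838778-32838807 (minus) for TAP2 and chr6:33314076-33314105 (minus) for TAPBP. That of PSMB8 lies at chr6:32844032-32844061 (plus), at the second of its starts in the table, and that of ERAP1 at chr5:96807924-96807953 (plus). In B2M, TAP1 and TAPBP 2 cores overlap, which gives 3 GAAA in a row. The core lies 144 to 129 bases before the start in B2M, 156 to 147 before it in HLA-F, 134 to 119 before it in TAP1, 58 to 49 before it in TAP2 and 20 to 5 before it in TAPBP. In PSMB8 it spans the start and in ERAP1 it lies just after it. In HLA-F, TAP1, PSMB8 and ERAP1 it reads on the strand opposite to the gene.

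By the same annotation, 7 of the 10 genes lie on the short arm of chromosome 6, from HLA-F (chr6:29723434-29738532) and HLA-E (chr6:30489509-30494194) to TAPBP (chr6:33299694-33314078). B2M lies at chr15:44711517-44718145, NLRC5 at chr16:56989557-57083520 and ERAP1 at chr5:96760813-96935854. TAP2 (chr6:32821831-32838739), PSMB8 (chr6:32840717-32844679), TAP1 (chr6:32845209-32853704) and PSMB9 (chr6:32854192-32859851) follow each other in the MHC class II region. TAP1 and PSMB9 are transcribed away from each other from starts 488 bases apart, so their windows share 13 bases and a single CCAAT box, the match to ATTGG with its lowest base at 32853949. The PSMB9 window holds no ISRE core, and the core of TAP1 lies 354 to 369 bases before the PSMB9 start, outside that window. The CCAAT box, bound by NF-Y, was in 5 of the 11 windows (B2M, HLA-F, TAP1, PSMB9 and ERAP1) and in 34.6% of all windows. The gamma-interferon activated site (GAS), searched for as TTCNNNGAA, was in 2 windows, at the second starts of TAP1 and of PSMB8, and in 7.66% of all windows. CRE (TGACGTCA) and E box (CACGTG), the latter 1 of the sequences that MYC family proteins bind, were in 0 of the 11 windows and in 1.85% and 7.26% of all windows. A match is only a run of letters in the reference, and binding was not measured.

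**Figure D1:**
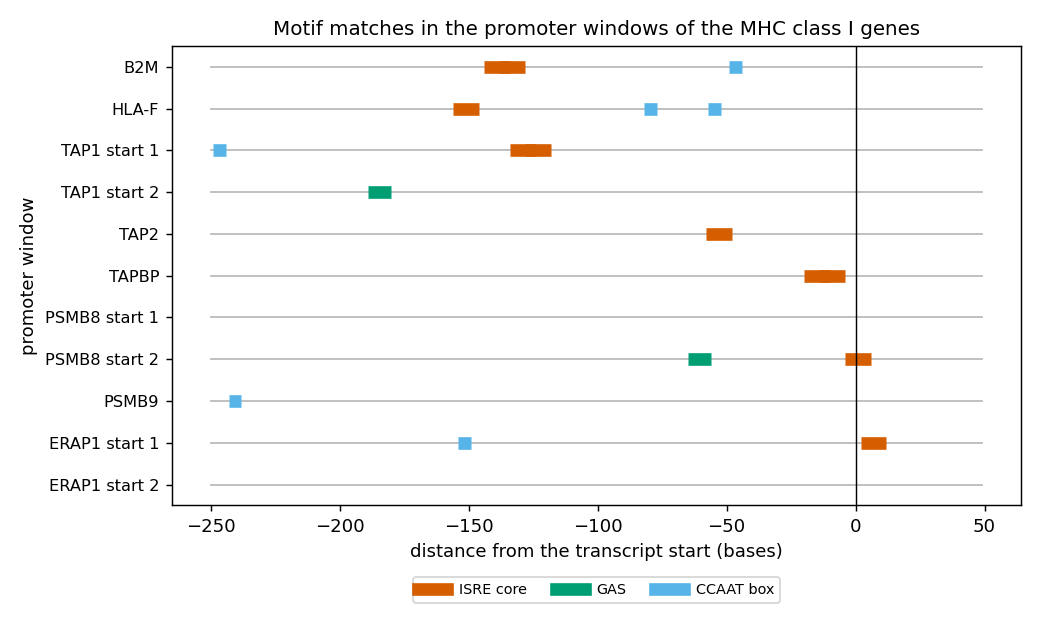
Positions of matches to the ISRE core (orange), GAS (green) and CCAAT box (light blue) in the 11 promoter windows, by distance in bases from the transcript start (vertical line). The ISRE core is in 7 windows, near the start in TAPBP, PSMB8 and ERAP1 and over 100 bases before it in B2M, HLA-F and TAP1.

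Of the 25 probe sets, 11 rose and 2 fell with RR against WT APE1 in BEAS-2B cells, against a background of 10.7% of all probe sets higher and 10.9% lower. With ND42 against WT, 10 rose and 2 fell, against 7.06% higher and 6.12% lower. In each comparison the probe sets that rose belong to HLA-E, HLA-F, TAP1, TAPBP, PSMB9 and ERAP1, and the probe sets that fell both belong to TAP2. The 2 comparisons share the 3 WT arrays. The median log2 fold change of the 10 leading probe sets was 0.41 with RR and 0.42 with ND42, and that of all genes was -0.02 and -0.01.

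HLA-E is a heavy chain that presents peptides cut from the leaders of other class I molecules to NKG2A receptors of natural killer cells. Its leading probe set 200905_x_at had log2 values of 10.82, 10.80 and 10.89 with WT, 11.31, 11.31 and 11.25 with RR and 11.26, 11.34 and 11.23 with ND42. All 6 mutant arrays were above all WT arrays, and the mutants overlapped each other. The log2 fold change was 0.46 with RR (SE 0.05, adjusted p = 0.000154) and 0.44 with ND42 (SE 0.05, adjusted p = 0.000239). A second probe set, 200904_at, went from 8.49, 8.51 and 8.49 with WT to 9.47, 9.45 and 9.31 with RR and 9.43, 9.34 and 9.14 with ND42. Its log2 fold changes were 0.91 (adjusted p = 2.73e-05) and 0.81 (adjusted p = 7e-05). The third, 217456_x_at, had changes of 0.16 and 0.15 and was not called. A suffix _x_at means that the maker of the array found probes that also match other transcripts. The size of the HLA-E change differed between its probe sets, also between those with this suffix.

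HLA-F is a heavy chain that can reach the cell surface without peptide and is known as a ligand of natural killer cell receptors. Its leading probe set 221875_x_at had 11.71, 11.42 and 11.68 with WT, 11.94, 12.04 and 11.94 with RR and 12.05, 12.03 and 11.94 with ND42, with log2 fold changes of 0.37 (SE 0.08, adjusted p = 0.00513) and 0.41 (SE 0.08, adjusted p = 0.0042). WT replicate 2 was the lowest array, and without it the changes were under the fold threshold. The probe set 221978_at rose more, from 7.91, 7.72 and 7.95 with WT to 9.10, 9.11 and 8.90 with RR and 9.15, 9.03 and 8.71 with ND42. Its log2 fold changes were 1.18 (SE 0.11, adjusted p = 5.42e-05) and 1.11 (SE 0.11, adjusted p = 0.0001). The remaining probe set, 204806_x_at, rose by 0.37 with RR (adjusted p = 0.0027) and by 0.41 with ND42 (adjusted p = 0.00181). In both HLA genes the probe sets without the _x_at suffix thus had the larger changes, and this difference was not tested.

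B2M, the light chain that all class I heavy chains share, had 13.60, 13.44 and 13.50 with WT, 13.57, 13.45 and 13.59 with RR and 13.61, 13.64 and 13.63 with ND42 at 201891_s_at. RR overlapped WT and ND42 lay just above it. The 95% intervals of its log2 fold change were -0.11 to 0.15 with RR and -0.02 to 0.24 with ND42. At this probe set B2M was above the 99th percentile of all probe sets in every group of both lines. At 216231_s_at both mutants lay above WT, with changes of 0.08 and 0.14 that were not called. The third probe set, 232311_at, was at the 62.4th percentile or lower in every group and overlapped between WT and the mutants.

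The transporter subunits moved in opposite directions. TAP1 had 8.55, 8.72 and 8.61 with WT, 9.28, 9.36 and 9.09 with RR and 9.23, 9.12 and 9.02 with ND42. The 6 mutant arrays were all above the WT arrays, and the log2 fold change was 0.61 with RR (SE 0.08, adjusted p = 0.000429) and 0.50 with ND42 (SE 0.08, adjusted p = 0.002). TAP2, its partner in the same channel, had 8.24, 8.13 and 8.17 with WT at 225973_at, 7.44, 7.55 and 7.59 with RR and 7.67, 7.78 and 7.77 with ND42. Here all mutant arrays were below all WT arrays, with log2 fold changes of -0.65 (SE 0.06, adjusted p = 4.19e-05) and -0.44 (SE 0.06, adjusted p = 0.000527). TAP2 also fell at 204770_at, by 0.53 and 0.51 on the log2 scale. Its leading probe set 204769_s_at had 8.27, 8.27 and 8.35 with WT, 8.08, 7.97 and 7.98 with RR and 8.02, 7.95 and 8.06 with ND42. Its changes of -0.29 and -0.29 passed the adjusted p (0.00329 and 0.00439) but were under the fold threshold. The fourth TAP2 probe set, 208428_at, was dim and overlapped between the groups.

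TAPBP (tapasin), which tethers the heavy chain to the transporter, had 9.35, 9.37 and 9.31 with WT at 208829_at, 10.18, 10.06 and 10.08 with RR and 10.14, 10.06 and 9.83 with ND42. Both mutants lay above WT and overlapped each other, and the log2 fold change was 0.76 with RR (SE 0.08, adjusted p = 7.9e-05) and 0.67 with ND42 (SE 0.08, adjusted p = 0.000227). The other TAPBP probe sets, 1555565_s_at and 210294_at, had changes of -0.01 to 0.21 and were not called. ERAP1, the aminopeptidase that trims peptides in the endoplasmic reticulum, had 9.22, 9.10 and 9.15 with WT at its leading probe set 209788_s_at, 10.02, 9.97 and 10.00 with RR and 10.00, 9.77 and 9.82 with ND42. This change was 0.84 with RR (SE 0.07, adjusted p = 1.98e-05) and 0.71 with ND42 (SE 0.07, adjusted p = 6.4e-05). ERAP1 rose most at 214012_at, by 1.47 and 1.56 on the log2 scale, where WT had 6.17, 5.42 and 5.94 and the mutants 7.26 to 7.55. At 209701_at it rose with RR by 0.37 (adjusted p = 0.0277) although RR and WT arrays overlapped. Its other probe sets, 210385_s_at and 214034_at, were not called.

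PSMB8 and PSMB9 encode catalytic subunits that replace constitutive ones in the immunoproteasome. PSMB9 had 9.83, 9.89 and 9.82 with WT, 10.41, 10.55 and 10.47 with RR and 10.48, 10.37 and 10.33 with ND42. All mutant arrays were higher, by 0.63 with RR (SE 0.06, adjusted p = 5.74e-05) and 0.55 with ND42 (SE 0.06, adjusted p = 0.000161). PSMB8 had 9.60, 9.57 and 9.62 with WT, 9.92, 9.90 and 9.84 with RR and 9.80, 9.77 and 9.79 with ND42. The PSMB8 arrays did not overlap with WT, and its changes of 0.29 (adjusted p = 0.00116) and 0.19 (adjusted p = 0.0164) were under the fold threshold. NLRC5, the transactivator of class I genes, had 6.57, 6.59 and 6.69 with WT, 6.69, 6.76 and 6.76 with RR and 6.77, 6.76 and 6.95 with ND42, and was not called at changes of 0.12 and 0.21. RR overlapped WT. ND42 did not, and its change passed the adjusted p (0.0469) but was under the fold threshold.

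**Figure D2:**
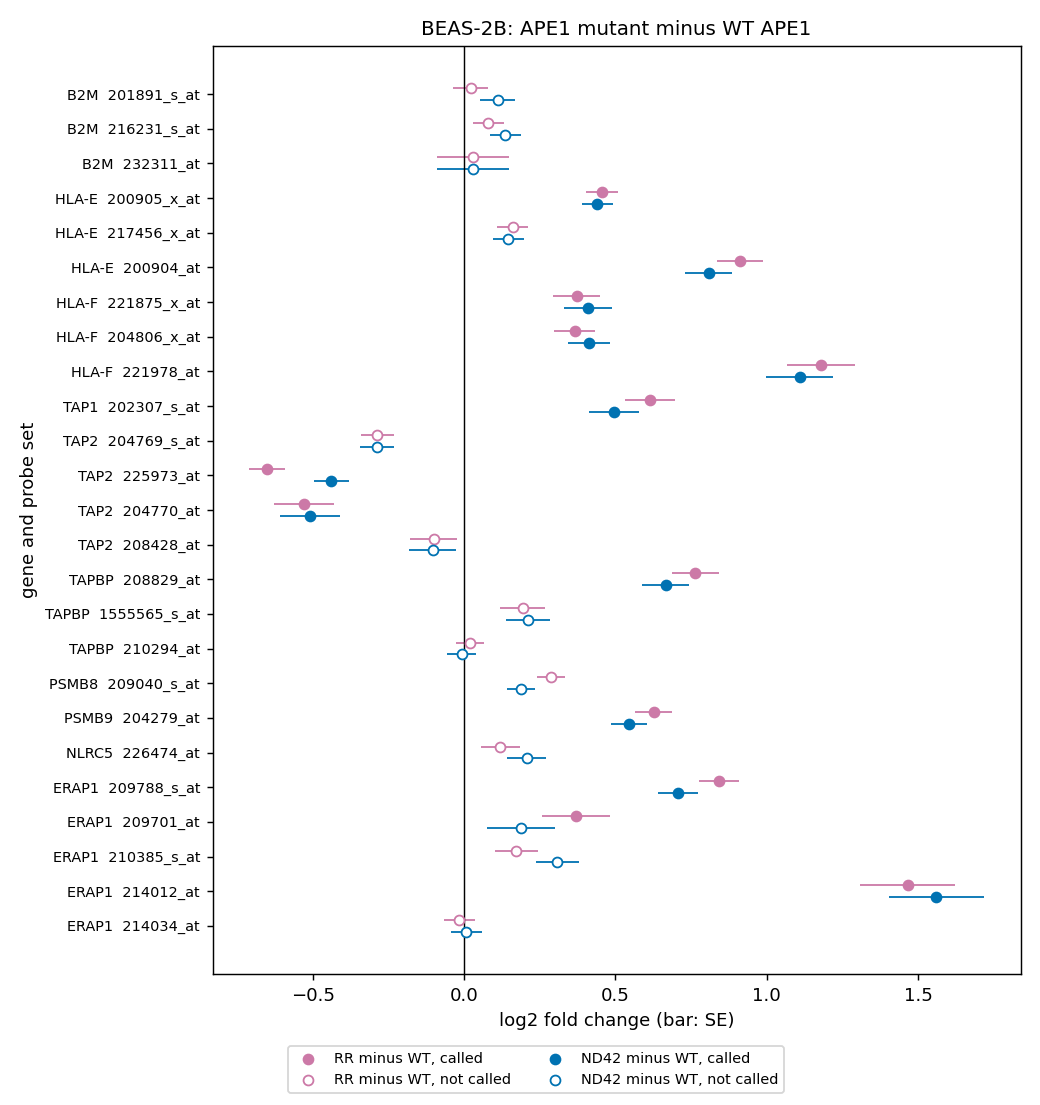
Log2 fold change of each of the 25 probe sets in BEAS-2B cells for RR minus WT APE1 (pink) and ND42 minus WT APE1 (blue), with bars of 1 SE from limma and filled points for called probe sets. HLA-E, HLA-F, TAP1, TAPBP, PSMB9 and ERAP1 have filled points to the right of 0, and the filled points to the left are both TAP2.

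Between the mutants, 0 of the 25 probe sets were called for ND42 minus RR, against 0% of all probe sets higher and 0% lower. At an unadjusted p under 0.05 there was 1, TAP2 at 225973_at, where ND42 was higher by 0.21 with a 95% interval of 0.08 to 0.34 and the groups did not overlap (adjusted p = 0.258). Over all 54613 probe sets 6964 had an unadjusted p under 0.05 in this comparison. The 95% interval of the difference was -0.30 to 0.07 for TAP1, -0.27 to 0.08 for TAPBP, -0.21 to 0.05 for PSMB9 and -0.28 to 0.01 for ERAP1 at the leading probe sets. A difference at the fold threshold lies outside these 4 intervals. For HLA-E the interval was -0.13 to 0.10 and for HLA-F it was -0.14 to 0.21.

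Other markers moved with the mutants as well, while 13.6% of all genes rose and 12.4% fell with RR and 9.98% and 7.8% with ND42. Of 5 fibroblast markers, COL1A1, COL1A2, COL3A1 and PDGFRB rose and DCN, named after its value was seen, fell with RR, and COL1A1, COL1A2 and PDGFRB rose with ND42. The group mean of COL3A1 was not above log2 6 in any group, and that of COL1A2 was not with WT. The summed level of the 5 fibroblast markers was 3582 to 4422 on a linear scale with WT, 7604 to 8263 with RR and 8192 to 8485 with ND42. The summed level of 5 epithelial markers was 4342 to 4598, 4309 to 4631 and 4214 to 4488, and 0 of them were called. Of 4 leukocyte markers, CD14 rose with RR and with ND42 and CD3E fell with RR, and their summed level was 226 to 256 with WT, 234 to 259 with RR and 275 to 278 with ND42. Of 4 endothelial markers PECAM1 fell in both comparisons, and their summed level was 214 to 232, 174 to 186 and 188 to 211. The 3′ minus 5′ difference of GAPDH, a sign of RNA quality, was 0.10 with WT on all 3 arrays, -0.06 to 0.05 with RR and -0.01 to 0.02 with ND42. That of ACTB was 0.24 to 0.35, 0.26 to 0.37 and 0.35 to 0.38. The bioB spike, a bacterial transcript added during labelling, was 7.26 to 7.65 with WT, 7.53 to 8.01 with RR and 7.68 to 7.72 with ND42. GAPDH thus separated WT from both mutants, and ACTB and bioB separated it from ND42 alone. The part of these markers and controls in the result was not tested. In a bulk sample fewer cells with a transcript and less transcript per cell cannot be told apart.

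TSA changed 5 of the 25 probe sets in A549 cells with control siRNA, 3 up and 2 down, against 9.33% of all probe sets higher and 8.40% lower. With APE1 siRNA it also changed 5, 3 up and 2 down, against 11.3% higher and 10.2% lower. HLA-E, PSMB9 and NLRC5 rose in each, and TAP2 fell in each at 1 probe set. The shares are near those of all probe sets. The median log2 fold change of the 10 leading probe sets was 0.11 and 0.37, and that of all genes was -0.04 and 0.01. The 3 arrays of APE1 siRNA without TSA include the array that stood apart, and without it the median was 0.11 with control siRNA and 0.16 with APE1 siRNA.

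NLRC5 went from 6.86, 6.88 and 6.70 to 7.17, 7.23 and 7.44 with TSA in control siRNA cells and from 6.62, 6.89 and 6.65 to 7.17, 7.33 and 7.28 in APE1 siRNA cells. All 6 TSA arrays were above all 6 arrays without it, and the log2 fold change was 0.47 (SE 0.10, adjusted p = 0.00705) and 0.54 (SE 0.10, adjusted p = 0.00276). PSMB9 went from 8.12, 7.99 and 8.02 to 8.56, 8.64 and 8.75 with TSA in control siRNA cells. In APE1 siRNA cells it went from 7.85, 7.57 and 7.88 to 8.37, 8.24 and 8.34. The TSA arrays were above their own siRNA's arrays in each case, and PSMB9 rose by 0.61 (SE 0.09, adjusted p = 0.000833) with control siRNA and by 0.55 (SE 0.09, adjusted p = 0.00146) with APE1 siRNA. HLA-E at 200905_x_at went from 9.64, 9.80 and 9.87 to 10.09, 10.21 and 9.98 in control siRNA cells and from 9.48, 9.34 and 9.48 to 9.79, 9.85 and 9.89 in APE1 siRNA cells, again without overlap. It rose by 0.33 (SE 0.08, adjusted p = 0.0188) in the former and 0.41 (SE 0.08, adjusted p = 0.00488) in the latter, and both calls were lost after a further quantile normalization of the arrays (adjusted p = 0.469 and 0.914).

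TAP2 moved the other way with TSA. At 204769_s_at it went from 8.15, 8.04 and 8.11 to 7.75, 7.77 and 7.85 in control siRNA cells and from 8.07, 7.93 and 7.98 to 7.64, 7.66 and 7.62 in APE1 siRNA cells. The TSA arrays were below the others, with a log2 fold change of -0.31 (adjusted p = 0.00379, under the fold threshold) and of -0.36 (adjusted p = 0.00138, called). At 204770_at it fell by 0.44 with control siRNA and was -0.34 with APE1 siRNA (adjusted p = 0.0581). ERAP1 fell with control siRNA at 214012_at by 0.63 (adjusted p = 0.0257), and its leading probe set had changes of -0.17 and -0.21 that were not called. PSMB8 was dim in A549 cells, with 4.72, 5.17 and 5.15 after APE1 siRNA and 4.59, 4.77 and 4.51 with TSA. These groups overlap, and its called change of -0.39 (adjusted p = 0.0432) was lost when only the groups compared were fitted (adjusted p = 0.178).

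TAPBP, B2M and the HLA-E probe set 200904_at had wide errors in A549 cells, where 1 array lay far from its replicates. On APE1 siRNA replicate 2 TAPBP was at 6.84 against 9.68 and 9.65 on replicates 1 and 3, B2M was at 10.51 against 12.97 and 12.90 and HLA-E at 200904_at was at 5.72 against 7.84 and 7.76. Of the 25 probe sets, 5 lay over 1 log2 unit from the mean of the other replicates there. In TAPBP the other arrays had 9.69, 9.73 and 9.71 after control siRNA, 9.25, 9.08 and 9.14 after control siRNA with TSA and 9.15, 9.04 and 9.16 after APE1 siRNA with TSA. Without that array, TAPBP fell with TSA by 0.56 with control siRNA (SE 0.06, adjusted p = 9.61e-06) and by 0.55 with APE1 siRNA (SE 0.07, adjusted p = 3.27e-05), and with it the changes were -0.56 (SE 0.60) and 0.40 (SE 0.60) and were not called. HLA-E at 200904_at then rose with TSA by 0.46 in APE1 siRNA cells (adjusted p = 0.000132). Without that array 3 probe sets rose and 3 fell with TSA in control siRNA cells, against 12.8% of all probe sets higher and 12.8% lower. In APE1 siRNA cells 4 rose and 4 fell, against 13.2% higher and 14.9% lower, and ERAP1 fell at its leading probe set by 0.33.

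**Figure D3:**
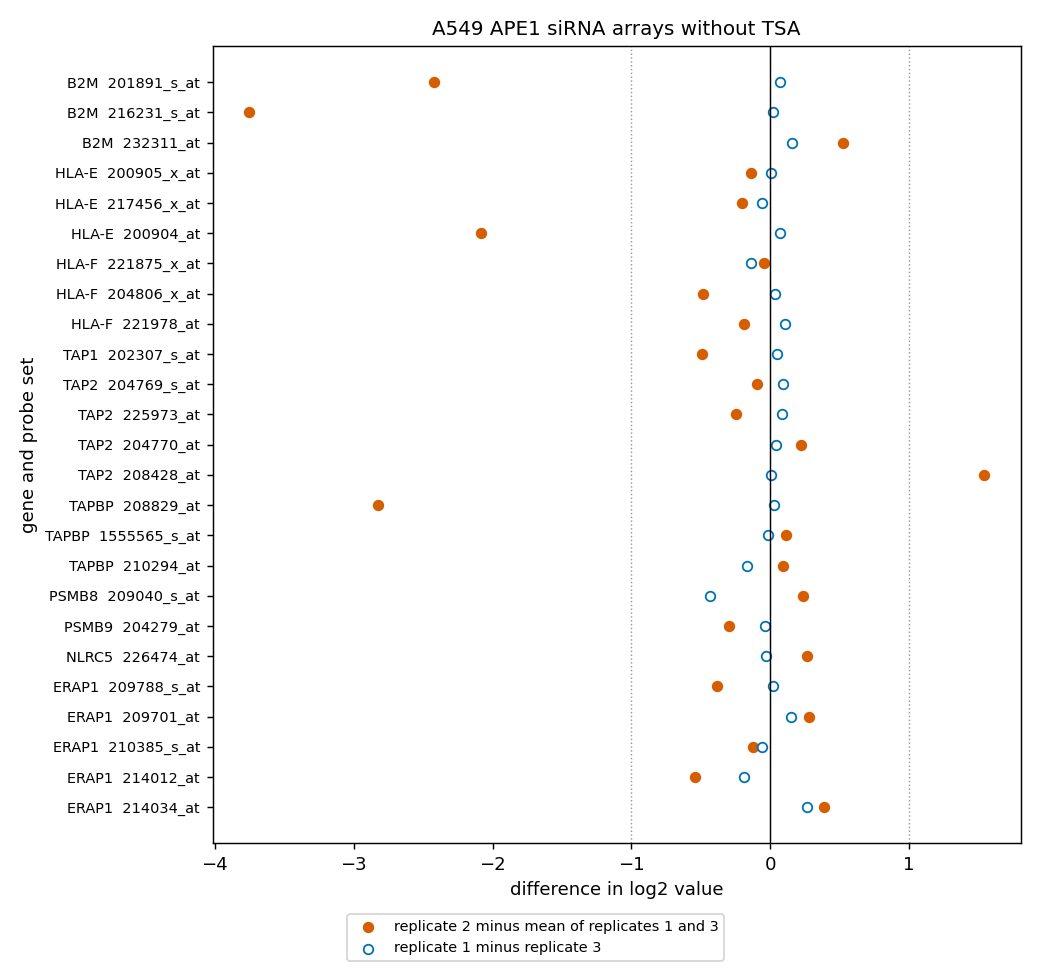
For each of the 25 probe sets, the log2 value on A549 APE1 siRNA replicate 2 minus the mean of replicates 1 and 3 (filled) and replicate 1 minus replicate 3 (open), with dotted lines at a difference of 1. The filled points of B2M (2 probe sets), HLA-E at 200904_at and TAPBP at 208829_at lie below -1 and that of TAP2 at 208428_at above 1, and all open points lie within 1 of 0.

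The interaction of APE1 siRNA and TSA, which tests whether the TSA effect differed between the siRNAs, was called for 0 of the 25 probe sets, against 0.0146% of all probe sets higher and 0.0494% lower. None of the 25 had an unadjusted p under 0.05, while 3598 of all probe sets did. Its 95% interval was -0.24 to 0.38 for NLRC5, -0.35 to 0.23 for PSMB9 and -0.18 to 0.35 for HLA-E. For TAPBP it was -0.93 to 2.83, which leaves its interaction unmeasured with all arrays in the fit. RNA control probe sets moved with TSA too: the bioB spike averaged 8.04 ± 0.11 (SD, n = 3) after control siRNA and 6.52 ± 0.10 (SD, n = 3) with TSA (exact permutation test, two-sided, p = 0.1, the smallest that 3 against 3 can give). The difference between the ACTB 3′ and 5′ probe sets was 0.13 to 0.35 without and 0.54 to 0.87 with TSA after control siRNA. After APE1 siRNA it was 0.43 to 6.08 without TSA (SD 3.22, the widest spread of any group) and 0.90 to 1.05 with TSA. Their part in the result was not tested.

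**Figure D4:**
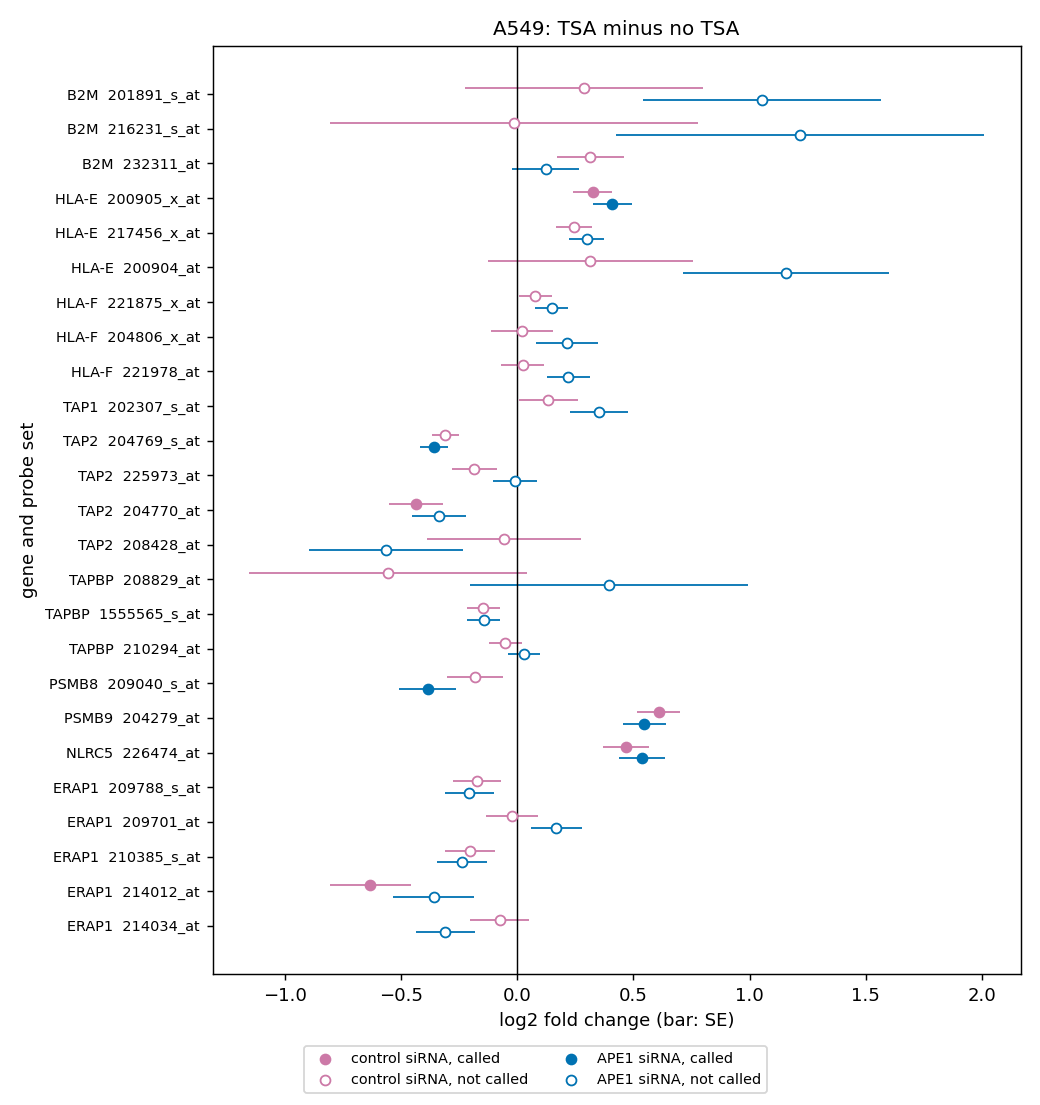
Log2 fold change of each of the 25 probe sets with TSA in A549 cells after control siRNA (pink) and after APE1 siRNA (blue), with bars of 1 SE from limma and filled points for called probe sets. HLA-E, PSMB9 and NLRC5 lie to the right of 0 in both, TAP2 at 204769_s_at lies to the left in both, and the widest bars are those of B2M and TAPBP.

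APE1 siRNA lowered 2 of the 25 probe sets and raised 0 in A549 cells without TSA, against 2.26% of all probe sets lower and 1.38% higher. TAP1 went from 8.07, 8.25 and 8.10 with control siRNA to 7.79, 7.28 and 7.74 with APE1 siRNA, and fell by 0.54 on the log2 scale (SE 0.13, adjusted p = 0.044). The groups did not overlap, and the array that stood apart was the lowest. Without that array the change was -0.37 (adjusted p = 0.00863), and with only these groups in the fit the call was lost (adjusted p = 0.291). TAP2 fell at 225973_at from 8.39, 8.32 and 8.13 to 7.95, 7.67 and 7.86, by 0.45 on the log2 scale (SE 0.10, adjusted p = 0.0264), while its leading probe set overlapped between the groups. Groups were also separate, without a call, at the leading probe sets of HLA-E, PSMB9 and TAPBP and at other probe sets of B2M, HLA-E, HLA-F and ERAP1. The share of all probe sets with separate groups was not counted, so nothing is read from this list. In TAPBP the lowest control siRNA array was at 9.685 and the highest APE1 siRNA array at 9.677. Its change was -0.05 without the array that stood apart. HLA-E was at -0.33 (adjusted p = 0.059) and PSMB9 at -0.28 (adjusted p = 0.17). Without the array that stood apart these changes were -0.29 and -0.18. Without the array that stood apart 4 probe sets fell, of TAP1, TAP2, HLA-E (200904_at, by 0.37) and ERAP1 (209701_at, by 0.37), against 3.34% of all probe sets lower and 3.55% higher.

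With TSA, 0 of the 25 probe sets were called between APE1 siRNA and control siRNA, against 1.36% of all probe sets higher and 2.89% lower. Of the 25, 6 had an unadjusted p under 0.05, as had 7604 of all 54613 probe sets. TAP1 had 8.17, 8.27 and 8.38 with TSA and control siRNA and 7.93, 8.02 and 7.91 with TSA and APE1 siRNA, which did not overlap (log2 fold change -0.32, SE 0.13, adjusted p = 0.266). PSMB9, with the values given above, was at -0.34 (SE 0.09, adjusted p = 0.0733), and without APE1 siRNA replicate 2, which lies outside this comparison but enters the spread, it fell at an adjusted p of 0.00389, against 6.04% of all probe sets lower and 2.98% higher. The HLA-E change was -0.25 (adjusted p = 0.163). The 3′ minus 5′ difference of GAPDH was 0.03 to 0.16 after control siRNA and 0.57 to 2.06 after APE1 siRNA without TSA, and 0.04 to 0.12 and 0.47 to 0.71 with TSA, and its part in the result was not tested.

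**Figure D5:**
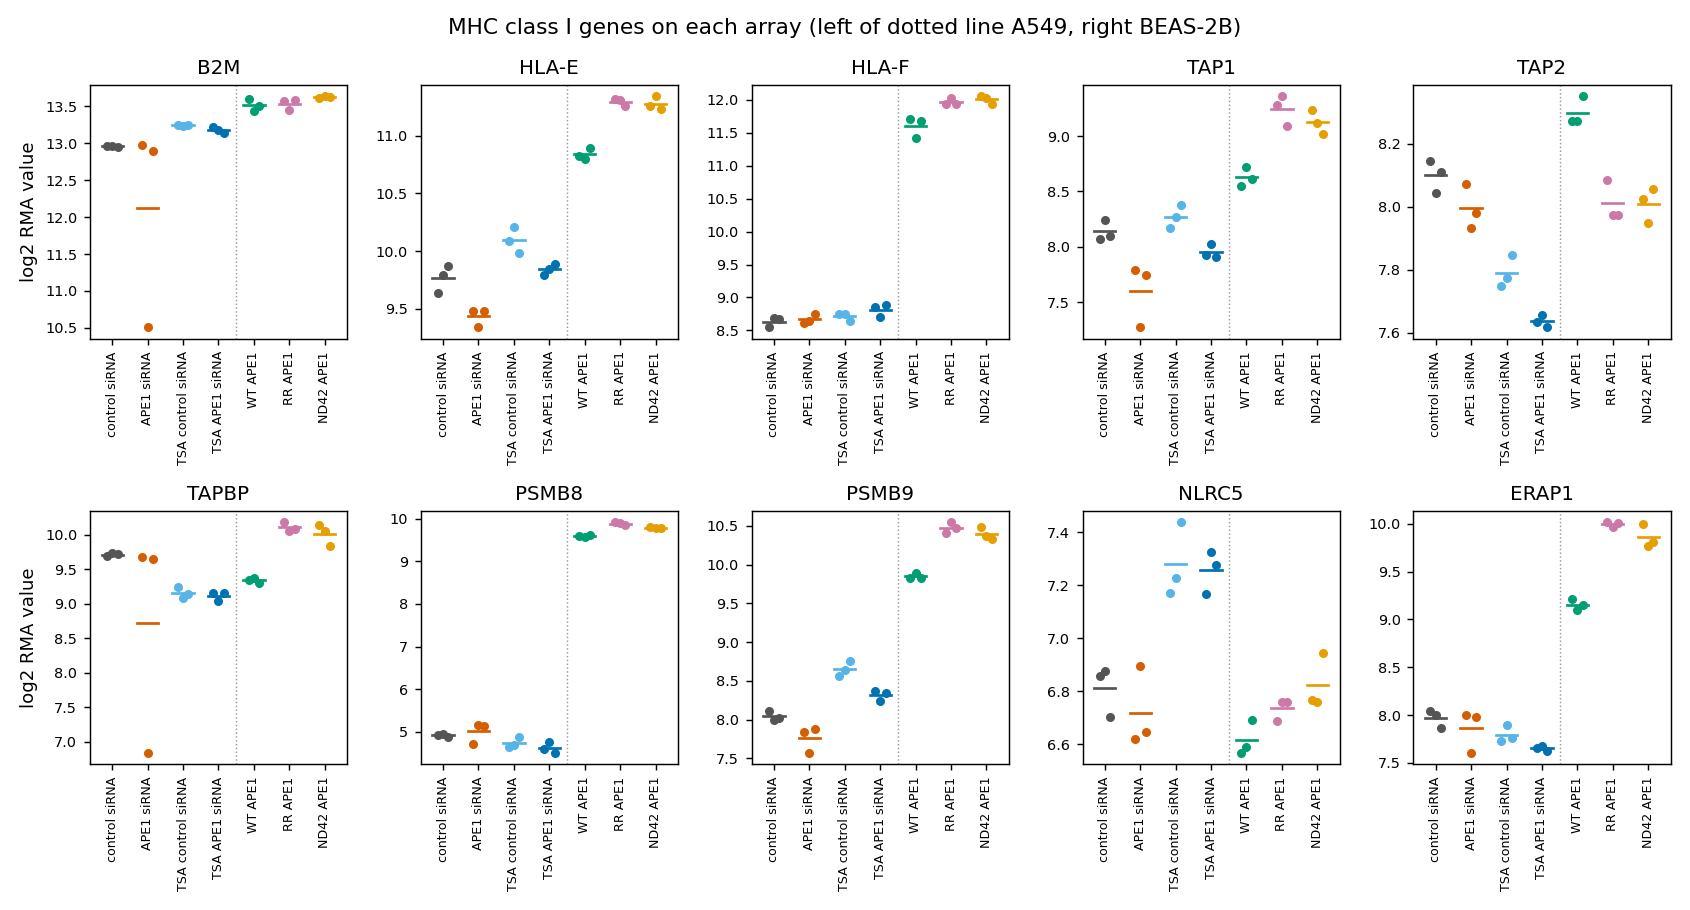
Log2 RMA value of the leading probe set of each gene on every array (points) with the group mean (bar), 3 arrays a group, A549 left and BEAS-2B right of the dotted line, with a separate axis for each gene. The mutants lie above WT in HLA-E, HLA-F, TAP1, TAPBP, PSMB8, PSMB9 and ERAP1 and below it in TAP2.

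The A549 and BEAS-2B arrays were normalized apart, so their levels are set side by side with no test. PSMB8 was at 4.51 to 5.17 in A549 cells, with group means at the 17.5th to 21.4th percentile of all probe sets, and at 9.57 to 9.92 in BEAS-2B cells, with means above the 94th. HLA-F had group means of 8.64 to 8.82 in A549 and 11.60 to 12.01 in BEAS-2B cells at its leading probe set, and of 5.27 to 5.49 and 7.86 to 9.03 at 221978_at. PSMB9 had means of 7.77 to 8.65 and 9.85 to 10.47, and ERAP1 of 7.65 to 7.97 and 9.16 to 10.00. TAP2, in contrast, had means of 7.64 to 8.10 and 8.01 to 8.30, and NLRC5 of 6.72 to 7.28 and 6.62 to 6.82.

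In the order of its group means TAP1 was highest with RR (9.24 ± 0.14, SD, n = 3) and ND42 (9.12 ± 0.10), whose ranges overlapped, then with WT (8.63 ± 0.09). In A549 cells it was highest with TSA and control siRNA (8.27 ± 0.10) and with control siRNA alone (8.14 ± 0.09), whose ranges overlapped, then with TSA and APE1 siRNA (7.95 ± 0.06) and with APE1 siRNA alone (7.60 ± 0.28), which did not overlap. Among 11682 genes with a mean log2 of at least 6 in both lines, those whose values were most like those of TAP1, by the mean of the Pearson correlations over the 12 A549 and the 9 BEAS-2B arrays, were TMED4 (0.98), DENND5A (0.96), COL6A1 (0.95), FRG1HP (0.95) and NTAN1 (0.95). HLA-E was at rank 221, PSMB9 at 243, TAPBP at 943, ERAP1 at 2759, NLRC5 at 3662, B2M at 3784, HLA-F at 4145 and TAP2 at 10655, and PSMB8 was below the minimum level in A549 cells. This is a description, since the arrays of a group share their condition. The A549 correlations include APE1 siRNA replicate 2, where TAP1, HLA-E, PSMB9, TAPBP, ERAP1 and B2M each had their lowest A549 value. Ranks without that array were not computed.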

How the data were processed

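RNA of 21 samples was hybridised to Affymetrix HG-U133 Plus 2.0 arrays, 3 for each of 7 groups taken from the sample labels. The authors made the deposited log2 values with affy and RMA (background correction and quantile normalization), and the A549 and BEAS-2B arrays have separate distributions, so the lines were normalized apart and were fitted apart here. The sources used here do not give the tool versions of that step. Deposited columns of the authors' limma comparisons hold fold changes and p-values and were not used.

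Of the probe sets, 62 controls were left out and 54613 were tested. By the platform annotation 41091 have 1 gene symbol, 1801 have several and 11721 have none, and names come only from the first kind. In R 4.3.3, limma 3.58.1 (lmFit and eBayes, 1 mean per group, all groups of a cell line) gave log2 fold changes, SEs and Benjamini-Hochberg adjusted p over all probe sets. Calls needed an adjusted p under 0.05 and a linear level at least 25% higher in the higher group. The fits were tested on simulated data. The number of arrays limits the precision.

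The 10 genes are given at all their probe sets, with values per array at the leading one and at others where a result turns on them. Genes of other lists are named where called, at most 4 for each list and comparison, by smallest adjusted p. The genes and lists were chosen with earlier results of these data known. Listed genes with no single-symbol probe set were not analysed here. Alternatives were: only the groups compared, a replicate block, further quantile normalization (also without APE1 siRNA replicate 2), median centring, a minimum mean log2 of 6, no minimum fold, eBayes with trend and robust, and leaving out each array.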

Additional observations from a re-analysis of the deposited data

How the results depend on the processing

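No direction reversed among the called changes of leading probe sets. TAPBP with TSA in APE1 siRNA cells, not called at 0.40, fell without APE1 siRNA replicate 2, as given above. Of the values of 21 called leading changes under alternatives, 335 kept their side of the threshold and 36 lost it. The count of called probe sets with APE1 siRNA alone, 2, was 0 with only the groups compared, 1 after further quantile normalization, 1 after median centring and 4 with quantile normalization of the A549 arrays other than APE1 siRNA replicate 2. Leaving out 1 array gave 0 to 4, with 4 without APE1 siRNA replicate 2, 0 without control siRNA replicate 2, and 1 without control siRNA replicate 1 or 3, APE1 siRNA replicate 3 or any TSA array. TAP1 lost its call without any 1 control siRNA array (adjusted p = 0.106, 0.177 and 0.121) or any 1 TSA array (0.0638 to 0.0737), and after centring (0.0584). For APE1 siRNA with TSA the count of 0 became 1 with only the groups compared and 1 at a mean log2 of at least 6, and was 0 to 1 when 1 array was left out, with 1 without APE1 siRNA replicate 2.

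For TSA with control siRNA the count of 5 became 3 after further quantile normalization and 3 at a mean log2 of at least 6. It was 2 to 6 when 1 array was left out, with 2 without control siRNA replicate 1 or TSA control siRNA replicate 2 and 3 without TSA control siRNA replicate 1, which also ended the HLA-E call (adjusted p = 0.0772, 0.0793 and 0.0509). HLA-E was under the fold threshold with quantile normalization of the A549 arrays other than APE1 siRNA replicate 2. For TSA with APE1 siRNA the count of 5 was 4 to 8 when 1 array was left out, with 8 without APE1 siRNA replicate 2. PSMB8 lost its call there under 14 alternatives (adjusted p up to 0.179), and TAP2 fell under the fold threshold without APE1 siRNA replicate 1. The range when 1 array was left out was 10 to 13 for RR minus WT (13), 11 to 13 for ND42 minus WT (12), 0 to 0 for ND42 minus RR (0) and 0 to 0 for the interaction (0). HLA-F was under the fold threshold without WT replicate 2, and with RR also after further quantile normalization. Of the counts in other lists under alternatives, 306 stayed within 1.5 times and 54 did not. The cause was not tested.

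Replicate numbers were not taken as pairs in the main fits, and 3 arrays a group cannot settle whether they were. The correlation between same-numbered arrays' deviations from their group means was -0.079 to 0.264 in A549 (18 pairs, 2 over 0.1) and -0.033 to 0.201 in BEAS-2B cells (9 pairs, 2 over 0.1). With a replicate block, 1 probe set was called for APE1 siRNA alone in place of 2, as TAP1 lost its call (adjusted p = 0.0976), and the counts of the other comparisons stayed within 1.5 times.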

Other observations

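Genes that work beside the 10 in antigen presentation were read at their leading probe sets. Among 6 other class I heavy chains and relatives, MICA and MICB, stress-induced ligands of the NKG2D receptor of natural killer cells that present no peptide, had the largest changes with TSA. MICB was at 4.84 to 5.39 after control siRNA and at 8.83 to 9.11 with TSA, and it rose by 3.78 on the log2 scale (adjusted p = 7.19e-08, limma). After APE1 siRNA it was at 5.78 to 5.89, and at 9.40 to 9.58 with TSA, a rise of 3.63 (adjusted p = 6.86e-08). MICA rose with TSA by 1.65 and 1.70. These 2 of 6 stood against 11.8% of all genes higher with TSA after control siRNA and 15.2% after APE1 siRNA, and the other 4 (HLA-B, HLA-C, HLA-G and MR1) were not called. MICB rose with APE1 siRNA alone as well, by 0.68 (adjusted p = 0.0177). HLA-C rose with APE1 siRNA under TSA by 0.38 (adjusted p = 0.038). Each was 1 of the 6, while 1.83% and 1.91% of all genes rose. In BEAS-2B cells MICA rose with RR by 0.40 and MR1, which presents vitamin B metabolites, with ND42 by 0.39. This was 1 of 6 with each mutant, while 13.6% and 9.98% of all genes rose. HLA-B, HLA-C and HLA-G were not called with either mutant. With WT, RR and ND42 the group means were 13.26, 13.43 and 13.41 for HLA-B and 13.08, 13.19 and 13.20 for HLA-C. Those of HLA-G were 12.49, 12.69 and 12.73.

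Of 8 interferon receptors and signal transducers, 4 rose and 1 fell with RR and 4 rose and 1 fell with ND42, while 13.6% and 9.98% of all genes rose and 12.4% and 7.8% fell. The receptor chain IFNGR1 rose by 0.54 with RR and 0.43 with ND42, its partner IFNGR2 by 0.42 and 0.40, and the kinases JAK1 by 0.53 and 0.44 and TYK2 by 0.61 and 0.52. IRF9, the DNA-binding part of the complex that reads the ISRE, went the other way, at -0.59 and -0.74. IRF9 with RR and TYK2 with ND42 were named after their values were seen. The list's median log2 fold change was 0.36 with RR and 0.32 with ND42. In A549 cells JAK1 and IRF9 fell with APE1 siRNA alone, by 0.35 and 0.44. With TSA JAK1 rose by 0.48 after control siRNA and 0.61 after APE1 siRNA, and IFNGR2 fell by 0.73 and 0.54. IRF9 also fell with TSA after control siRNA, by 0.52, and IFNAR1 rose with it after APE1 siRNA, by 0.33. Of the 8, 2 fell with APE1 siRNA alone (3.04% of all genes). With TSA 1 rose and 2 fell after control siRNA (11.8% and 8.87% of all genes). After APE1 siRNA 2 rose and 1 fell with TSA (15.2% and 9.79%).

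Of 5 peptide loading and trimming genes, ERAP2, the other trimming peptidase of the endoplasmic reticulum, and PDIA3, a subunit of the loading complex, rose with RR by 0.76 and 0.37 and with ND42 by 0.72 and 0.36. These 2 of 5 stood against 13.6% of all genes higher with RR and 9.98% with ND42. ERAP2 fell with TSA by 0.80 after control siRNA and by 1.12 after APE1 siRNA. It was 1 of 5 in each, while 8.87% and 9.79% of all genes fell. Of 6 other proteasome genes, PSME1, a subunit of the PA28 cap, rose with RR by 0.49 and with ND42 by 0.39. PSMB7, a constitutive catalytic subunit, had -0.43 and -0.53 there, and PSME3, the nuclear cap subunit, had -0.67 and -0.70, all called lower. Thus 1 of 6 rose and 2 fell with each mutant, while 13.6% and 9.98% of all genes rose and 12.4% and 7.8% fell. PSME3 also fell with TSA after control siRNA, by 0.36, as 1 of 6 (8.87% of all genes fell).

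Of 9 regulators, 3 fell with APE1 siRNA alone (3.04% of all genes fell) and 3 fell with APE1 siRNA under TSA (3.33%). IRF2 was at -0.74 and -1.27. RFX5, RFXAP and RFXANK form the RFX complex that binds class I and class II promoters. RFXANK was at -0.37 and -0.48, RFX5 was called only without TSA (-0.59) and RFXAP only with it (-0.68). The difference between the siRNA effects was not called for any regulator. With TSA IRF2 and IRF1 fell after control siRNA, by 0.84 and 0.38, and after APE1 siRNA, by 1.38 and 0.40. After APE1 siRNA RFX5 and NFYA, a subunit of NF-Y, rose with TSA by 0.64 and 0.44, and RFXAP, named after its value was seen, fell by 0.44. NFYB, another subunit of this CCAAT-binding factor, rose with RR by 0.82 and with ND42 by 0.55, and IRF2 rose with ND42 by 0.36. Of the 9 regulators, 2 fell with TSA after control siRNA (8.87% of all genes fell). After APE1 siRNA 2 rose and 3 fell with TSA (15.2% and 9.79% of all genes). With RR 1 rose (13.6%) and with ND42 2 (9.98%). Of 7 class II genes, HLA-DMB rose with TSA by 0.78 after control siRNA and 0.54 after APE1 siRNA, and HLA-DPB1 rose with RR by 0.48 and with ND42 by 0.41. HLA-DMA rose with ND42 by 0.47 and fell with APE1 siRNA under TSA by 0.44. With TSA 1 of 7 class II genes rose after each siRNA, near the 11.8% and 15.2% of all genes. With RR 1 of 7 rose and with ND42 2, against 13.6% and 9.98% of all genes. Under TSA 1 of 7 fell with APE1 siRNA, against 3.33%.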
